A study of Mus musculus with 6 samples.

Results

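Cholesterol is built from acetyl-CoA through mevalonate, farnesyl diphosphate and squalene, and its breakdown in brain starts with hydroxylated forms called oxysterols. Here 8 genes of these routes were described in ependymal cells, out of the 47643 genes listed. They were the cholesterol synthesis enzymes Hmgcs1, Mvd, Fdps, Fdft1, Sqle and Cyp51, the sterol sensor gene Insig1 and the oxysterol hydroxylase gene Cyp39a1. They were chosen by name, and Cyp39a1 was included because its level was lower in the knockout in these same libraries. All 8 were found once each by gene name, and all 8 passed the filter on low counts. Ependymal cells carry many cilia and line the ventricles of the brain. GFP-positive ependymal cells were sorted from the adult ventricular-subventricular zone of a Ccn1 conditional knockout (cKO, 3 samples) and a control (Ctrl, 3 samples), 2 days after tamoxifen. Per the series text, the tamoxifen-induced recombination switched on GFP and deleted Ccn1, which encodes a secreted protein of the extracellular matrix, and the GFP gate was set by hand against wild-type cells. The Cre driver, the alleles of the control, the age beyond adult and whether each sample was 1 mouse or a pool were not given in the sources used here.

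As background, HMGCS1 makes HMG-CoA from acetyl groups. MVD and FDPS act, with other enzymes, on the way from mevalonate to farnesyl diphosphate. FDFT1 joins farnesyl diphosphate into squalene. SQLE oxidises squalene, and CYP51 removes a methyl group from lanosterol on the way to cholesterol. The transcription factor SREBP-2 drives these genes when membrane sterol is low, and INSIG1 holds its precursor in the endoplasmic reticulum when sterol is high. CYP39A1 adds a 7-alpha hydroxyl group to 24-hydroxycholesterol, the oxysterol through which brain sheds cholesterol. CYP7B1 does the same to other oxysterols.

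RefSeq promoter windows (GRCm38.p6) were found for 4 of the 8 genes, Hmgcs1, Mvd, Cyp51 and Insig1. They are shown because SREBP and its partner NF-Y act at such sequences. Each is given 5′ to 3′ on the gene's strand, up to the base before the earlier of the RefSeq and GENCODE starts. Capitals mark matches, on either strand, to the sterol element TCACNCCAC, its looser form TCACNNCA and the NF-Y box CCAAT.
Hmgcs1, chr13:119690101-119690350, plus strand: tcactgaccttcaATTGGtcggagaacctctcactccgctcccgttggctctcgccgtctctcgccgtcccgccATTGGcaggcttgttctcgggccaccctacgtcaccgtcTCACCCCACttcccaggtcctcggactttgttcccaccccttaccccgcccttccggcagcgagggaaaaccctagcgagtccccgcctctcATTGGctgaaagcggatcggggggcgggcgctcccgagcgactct
Mvd, chr8:122443423-122443672, minus strand: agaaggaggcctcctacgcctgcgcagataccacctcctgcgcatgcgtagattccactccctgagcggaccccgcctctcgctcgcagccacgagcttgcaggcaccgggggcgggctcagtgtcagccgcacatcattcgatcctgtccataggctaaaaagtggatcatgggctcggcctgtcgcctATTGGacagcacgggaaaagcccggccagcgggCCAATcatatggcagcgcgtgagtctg
Cyp51, chr5:4104747-4104947, minus strand: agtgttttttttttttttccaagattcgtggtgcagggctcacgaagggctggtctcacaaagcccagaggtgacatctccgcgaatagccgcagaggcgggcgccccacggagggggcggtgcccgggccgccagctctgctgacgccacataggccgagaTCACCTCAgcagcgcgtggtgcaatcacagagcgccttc
Insig1, chr5:28071162-28071362, plus strand: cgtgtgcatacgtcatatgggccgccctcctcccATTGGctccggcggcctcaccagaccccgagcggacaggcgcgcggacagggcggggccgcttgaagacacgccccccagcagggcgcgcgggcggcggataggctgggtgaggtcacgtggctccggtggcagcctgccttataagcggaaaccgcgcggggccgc

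The sterol element stood in the Hmgcs1 window, with its first base at -137 from the RefSeq start, and in 1.24% of all 32851 windows of 300 bases. The looser form, which overlaps it there, was also found at -88 in the Cyp51 window (13.8% of all windows). NF-Y boxes were found in all 4 windows (37.4% of all windows). In the Cyp51 window the box began at -29, beyond the printed bases. The E-box CACGTG was found in the Insig1 window alone among the 4, at -101 (7.15% of all windows). The GC box GGGCGG was found in all 4 (35.7% of all windows). A match is a description of the letters and not of a bound site.

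The libraries held 13401499 to 15689579 estimated counts each. The labels call the RNA both cytoplasmic and total. Ccn1 stood at 29.8, 17.7 and 38.5 CPM in the cKO libraries and 110, 149 and 142 CPM in the controls (CPM is the count scaled to a common library size, with TMM factors). Every library therefore went with its label (exact two-sided permutation p = 0.1, the smallest that 3 against 3 allows). The markers listed for ependymal cells summed to 9922 to 10090 CPM in the cKO and 9545 to 12340 CPM in the control, with 9 of 9 detected. In astrocyte markers, 8 of 8 were detected, at 4700 to 5723 CPM and 5180 to 6732 CPM. Markers of oligodendrocytes, which are known for high cholesterol synthesis, summed to 402 to 456 CPM and 201 to 620 CPM, most of it Cnp, while Mog and Ugt8a were at 0 in all 6 libraries. Endothelial markers were near 0 (Flt1 alone among 6 was detected). Choroid plexus markers summed to 296 to 813 CPM and 522 to 649 CPM, mural markers to 593 to 678 and 406 to 753 CPM, and microglial markers to 167 to 202 and 147 to 175 CPM. Neuron, oligodendrocyte precursor and blood markers summed to at most 21.3, 8.48 and 43.1 CPM in any library. In sorted bulk samples, fewer cells of a type and less RNA per cell cannot be told apart.

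Compared per transcript length, in the deposited TPM (a unit scaled to transcript length and to the library), Sqle was the most abundant of the 8 genes and Insig1 the least. The mean over the 6 libraries was 70.8 ± 16.3 TPM for Sqle, 40.2 ± 27.0 for Fdps, 36.5 ± 24.9 for Cyp39a1, 23.8 ± 11.3 for Fdft1 and 23.4 ± 13.1 for Hmgcs1 (SD, n = 6). Below these stood Mvd at 5.997 ± 6.35, Cyp51 at 4.66 ± 4.05 and Insig1 at 3.12 ± 2.25 TPM. Sqle was above Fdps in 6 of 6 libraries and Hmgcs1 above Mvd in 6 of 6. The neighbours Fdft1 and Hmgcs1, Mvd and Cyp51, and Cyp51 and Insig1 changed places between libraries and did not differ beyond their spread. The Cyp39a1 mean pools 17.0 ± 7.08 TPM in the cKO and 56.1 ± 18.9 TPM in the control (SD, n = 3 each), so its rank differed by genotype. Fdps was above Cyp39a1 in every cKO library and in control 3. Cyp39a1 was above Fdft1 in every control library and in cKO 3.

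**Figure D1:**
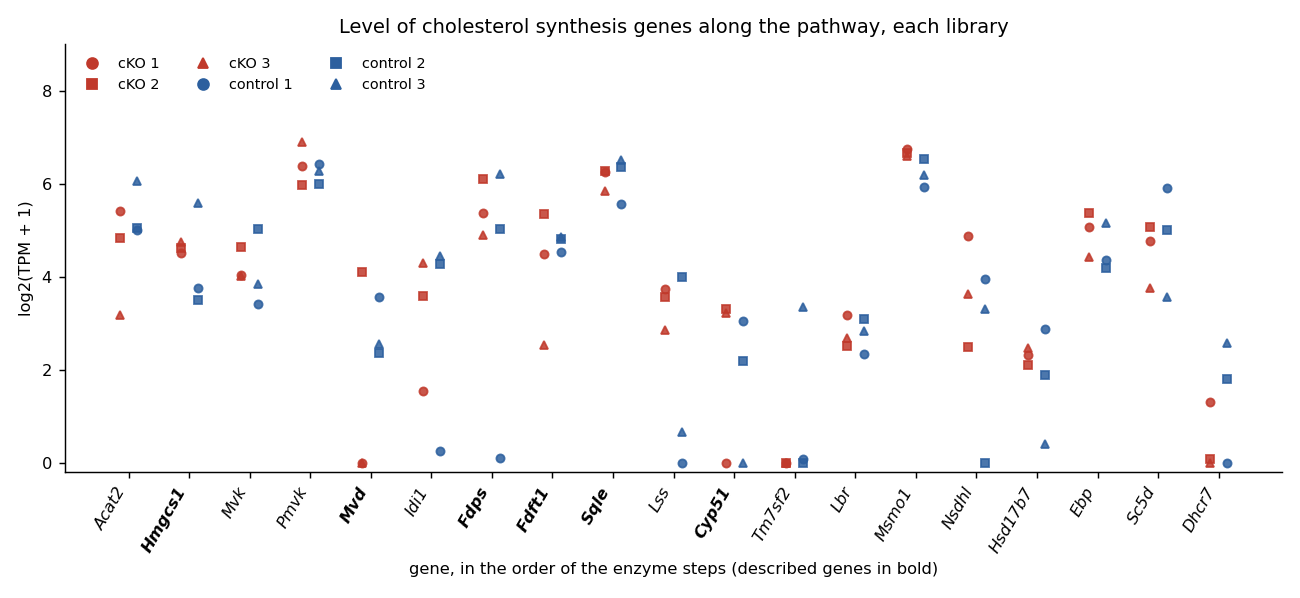
The vertical axis is log2(TPM + 1) and the horizontal axis lists 19 cholesterol synthesis genes in the order of their steps, with 1 point per library, red for cKO and blue for control. Pmvk, Sqle and Msmo1 form the highest points, and 7 genes have a library at 3 counts or fewer.

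Along the synthesis route the levels were uneven. Of 19 genes placed by step, 9 had a mean of at least 20 TPM and 2, Tm7sf2 and Dhcr7, a mean under 2 TPM, as the plot of levels along the pathway shows. Msmo1, which follows Cyp51 in removing methyl groups, stood at 87.3 TPM over the 6 libraries and Pmvk, the phosphomevalonate kinase gene, at 81.1 TPM. Tm7sf2 and Dhcr7, reductases of sterol double bonds, stood at 1.54 and 1.49 TPM. Pmvk, Tm7sf2, Dhcr7 and, below, Stard4 were singled out after their values were seen.

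In the first 4 enzymes of the list the difference between genotypes was smaller than its standard error. Hmgcs1 (ENSMUSG00000093930.1, chr13:119690379-119708260 on GRCm38, plus strand) stood at 58.5, 60.7 and 71.1 CPM in the cKO against 36.6, 26.3 and 121 CPM in the control. The 3 cKO values were close together and lay between the control values. The log2 fold change, cKO over control, was 0.05 ± 0.59 (SE, edgeR), and it was 1.01 without control 3, the highest library. Its sign turned in 3 of 6 fits without 1 library, to -0.31 without control 2, and limma-voom gave 0.33. Hmgcs1 shares 557 exon bases with Gm48342 on the other strand, so it is an uncertain value.

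Mvd (ENSMUSG00000006517.4, chr8:122433601-122443422, minus strand) stood at 0, 20.9 and 0 CPM in the cKO against 16.1, 5.33 and 6.32 CPM in the control. Both cKO 1 and cKO 3 had no count, which allows a level of up to 0.216 and 0.218 CPM (3 counts of each total, counting error only), while cKO 2 was the highest of all. Its log2 fold change of -0.41 ± 2.55 rested on cKO 2 and was -10.05 without it, a fitted value against libraries at 0 that gives no size.

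Fdps (ENSMUSG00000059743.12, chr3:89093588-89101959, minus strand) stood at 35.4, 57.1 and 25.6 CPM in the cKO against 0.0662, 26.3 and 61.0 CPM in the control. Control 1 held 1 count and the other 5 libraries 349 to 955. The log2 fold change was 0.43 ± 1.44, and it was -0.14 without control 1 and 1.57 without control 3. With limma-voom it was 2.80, on log2(TPM + 1) 1.68 and with the replicate number as a block 1.70. Transcripts of 6 other annotated genes, 5 of them processed pseudogenes, matched Fdps at 95% identity or more over at least 100 bases. The 4 of these that were listed had 0 counts in all 6 libraries, and the Fdps counts were whole numbers within 0.001. How the counting assigned reads shared with the other 2 was not tested, so Fdps is an uncertain value.

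Fdft1, the squalene synthase gene (ENSMUSG00000021273.9, chr14:63145150-63179578, minus strand), stood at 50.8, 89.6 and 11.5 CPM in the cKO against 56.5, 60.1 and 63.2 CPM in the control. The controls lay close together, and cKO 2 and cKO 3 lay on either side of them. Its log2 fold change was -0.24 ± 0.66, and it was 0.22 without cKO 3, -0.94 without cKO 2 and -0.68 with limma-voom. A processed pseudogene, Gm6781, matched Fdft1 at 97.4% over 1249 bases and had 6 counts in control 2 and 0 elsewhere. Fdft1 counts were fractional in 4 libraries, and the gene shares 774 exon bases with Ctsb on the other strand, so it is an uncertain value. The sources used here do not say whether the counting used strand.

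Sqle, the squalene epoxidase gene (ENSMUSG00000022351.14, chr15:59315077-59331192, plus strand), was the steadiest of the 8. It stood at 169, 165 and 131 CPM in the cKO against 115, 174 and 196 CPM in the control. The groups overlapped, and the highest library was 1.71-fold above the lowest. The log2 fold change was -0.06 ± 0.27, and its sign turned in 3 of 6 fits without 1 library (-0.25 to 0.10).

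Cyp51 (ENSMUSG00000001467.5, chr5:4081145-4104746, minus strand) stood at 0, 28.4 and 28.1 CPM in the cKO against 26.5, 11.3 and 0 CPM in the control. In each genotype 1 library had no count, which allows up to 0.216 CPM in cKO 1 and 0.191 CPM in control 3. Its log2 fold change was 0.58 ± 2.32. It was 1.16 without cKO 1, 1.74 without control 1, -0.0051 without control 3 and 1.31 with the replicate block. Its counts were fractional in 2 libraries and it shares 166 exon bases with Akap9 on the other strand, so it is an uncertain value.

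Insig1 (ENSMUSG00000045294.11, chr5:28071363-28078662, plus strand) stood at 3.84, 6.77 and 17.1 CPM in the cKO against 4.43, 4.67 and 4.47 CPM in the control. Only cKO 3 stood well above the rest. The log2 fold change of 1.03 ± 1.58 was 0.22 without cKO 3 and 0.59 on log2(TPM + 1). A processed pseudogene, Gm37784, matched Insig1 at 98.9% over 189 bases and had 0 counts.

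**Figure D2:**
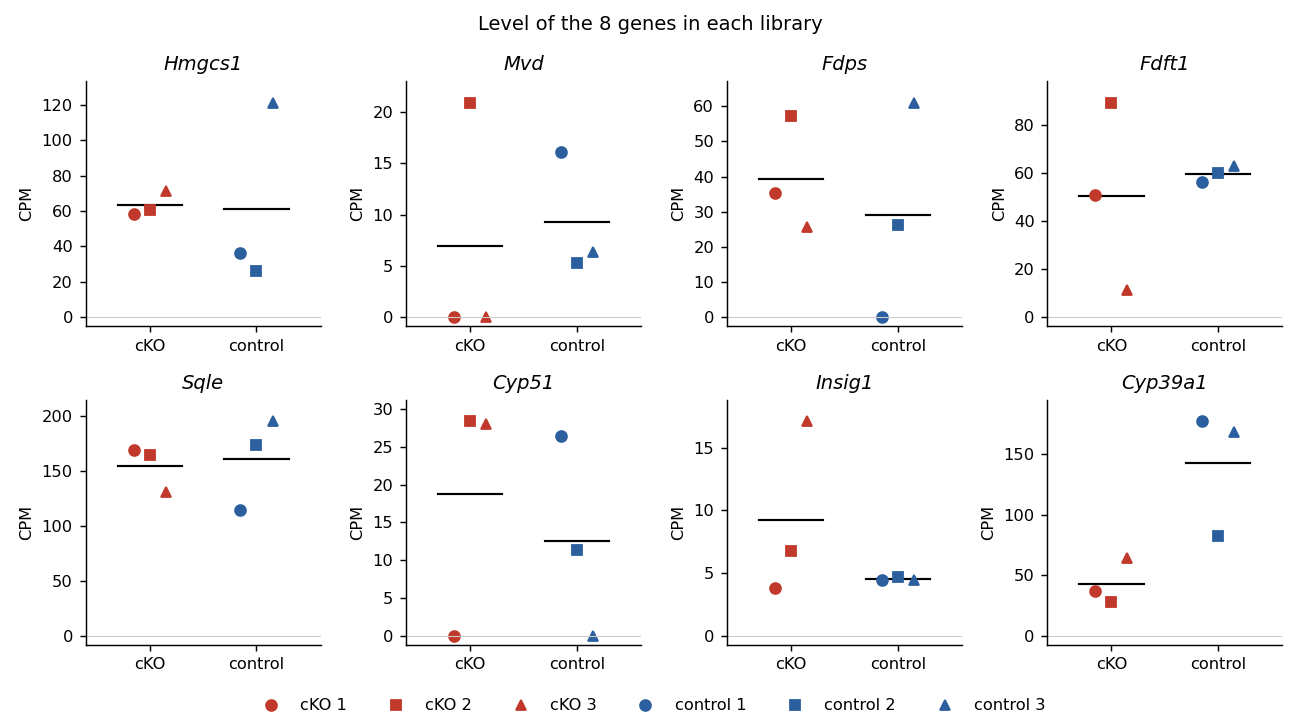
Each panel gives the CPM of 1 gene on its own vertical axis, with 1 point per library (circle, square and triangle for replicates 1, 2 and 3) and a black line at the mean of the 3 libraries. Cyp39a1 is the gene of the 8 whose cKO and control points do not overlap, and Mvd, Fdps and Cyp51 have points at or near 0.

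No library was highest or lowest for all 8 genes. In the 7 genes other than Cyp39a1, cKO 2 always lay above the mean log2 CPM of the 6 libraries. The excess ran from 0.17 SD (Hmgcs1) to 0.93 SD (Mvd), while for Cyp39a1 cKO 2 was the lowest library. Of the 7 genes other than Cyp39a1, 3 were highest in cKO 2 (Mvd, Fdft1 and Cyp51), 3 in control 3 (Hmgcs1, Fdps and Sqle) and 1 in cKO 3 (Insig1). The 6 enzymes summed to 158, 231 and 124 TPM in the cKO and 99.2, 158 and 243 TPM in the control. The lowest and the highest sum were both in controls, and in control 1, the lowest, Fdps held 1 count. Without Sqle the sums were 83.4, 155.6 and 67.5 TPM in the cKO against 52.8, 76.7 and 152.7 TPM in the control. Control 1 was again the lowest, and cKO 2 was then the highest. The oligodendrocyte markers summed to 402, 412 and 456 CPM in the cKO against 201, 363 and 620 CPM in the control. Control 1 was the lowest and control 3 the highest of the 6 for these markers and for the enzyme sum with Sqle. The part of these markers in the enzyme levels was not tested.

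**Figure D3:**
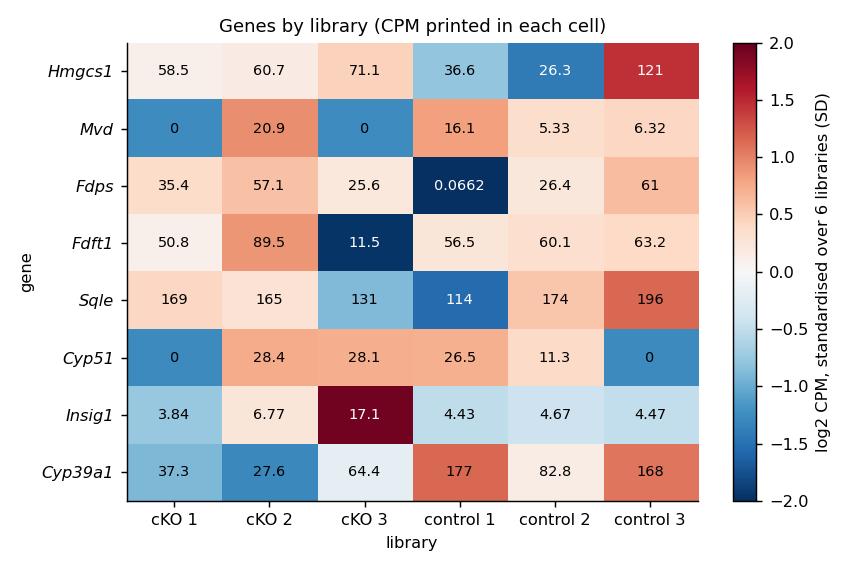
Rows are the 8 genes and columns the 6 libraries. Colour is log2 CPM standardised within a gene (SD units, red high and blue low), and the number in each cell is the CPM. The 3 cKO cells of Cyp39a1 run from 27.6 to 64.4 CPM and the 3 control cells from 82.8 to 177 CPM. In the other rows the ranges of the cKO and control cells overlap.

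Libraries at or near 0 were common at these depths. Of 2039 genes averaging 200 to 400 counts, the range of Cyp51, 32.8% had a library at 3 counts or fewer. The share was 70.6% at 100 to 200 counts, the range of Mvd, and 11.4% at 400 to 800 counts, the range of Fdps. The coefficient of variation of CPM over the 6 libraries was 0.189 for Sqle and 1.06 for Mvd, where genes of like mean count had medians of 0.249 and 1.025. For Hmgcs1, Fdps, Fdft1 and Cyp51 it was 0.533, 0.659, 0.457 and 0.874, against medians of 0.386, 0.532, 0.411 and 0.749. Insig1 varied less than its like (0.743 against a median of 1.105).

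Cyp39a1 (ENSMUSG00000023963.9, chr17:43667425-43751431, plus strand) stood at 37.3, 27.6 and 64.4 CPM in the cKO against 177, 82.8 and 168 CPM in the control. All 3 cKO libraries lay below all 3 controls, and control 2 was the closest control. Its log2 fold change was -1.73 ± 0.44 (SE), a 3.31-fold lower level in the cKO, and -2.14 to -1.49 with any 1 library left out. In TPM it stood at 14.7, 11.3 and 24.9 against 64.3, 34.5 and 69.4. Since this lower level was the reason for choosing the gene, these values are a description and carry no test. Its counts were whole numbers, and no other annotated gene matched its transcript. The summed level of progenitor and neuroblast markers, with 6 of 7 detected, was also lower in all 3 cKO libraries. It ran from 38.4 to 46.0 CPM in the cKO and from 58.0 to 84.7 CPM in the control (exact two-sided permutation p = 0.1, the smallest possible). The same permutation test was run on every marker list without adjustment, and the next smallest p was 0.2, for astrocyte markers. Each single progenitor or neuroblast marker overlapped between the groups. Of the 6 detected, 3 (Sox11, Tubb3 and Dcx) had a lower and 3 (Dlx1, Dlx2 and Mki67) a higher mean in the cKO. Sox11 gave most of the sum, with a cKO mean of 33.7 against 42.4 CPM, and Tubb3 had a cKO mean of 0 against 12.5 CPM. The part of these markers in the level of Cyp39a1 was not tested.

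By sign, 4 of the 8 genes had a higher and 4 a lower mean level in the knockout. Their median log2 fold change was -0.0051, beside 0.0044 over all 11574 genes tested. The edgeR quasi-likelihood test called 0 of the 8 at an adjusted p of 0.05, as it called 0 of 11574 genes (0%). At an unadjusted p of 0.05 it had 318 genes (2.75%), and limma-voom called 0 genes after adjustment. DESeq2 called 1 of the 8, Cyp39a1, where it called 198 of 12133 genes (1.63%), 88 of them lower in the cKO (0.725%). The cKO lay wholly below the control for 1 of the 8, Cyp39a1, and for 4.62% of all genes tested. It lay wholly above for 0 of the 8 and for 4.99% of all genes, and the groups were apart in either direction for 9.62%. As the choice of genes used this contrast, nothing is read from these shares. The labels do not say whether the samples came from separate animals, so p-values measure only the spread between these samples.

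**Figure D4:**
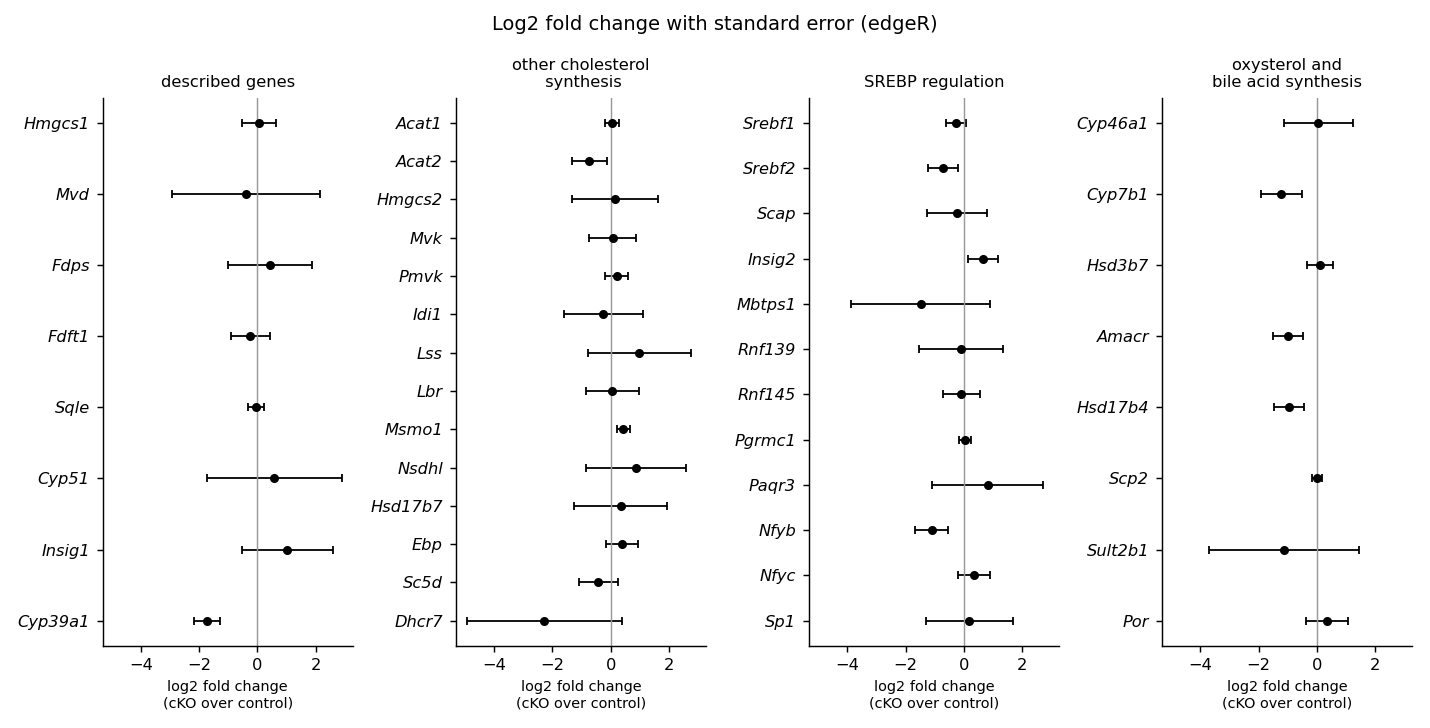
The horizontal axis is the log2 fold change of cKO over control from edgeR, with points for the estimate and bars for its standard error, in 4 groups of genes with 1 gene per row. Cyp39a1 lies at -1.73 ± 0.44, the other synthesis genes have standard errors from 0.23 (Msmo1) to 2.66 (Dhcr7), and Dhcr7 lies farthest to the left at -2.28.

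The rest of the pathway was read from 8 lists of 116 genes. Of their 87 tested genes, edgeR called 0 higher and 0 lower over all genes (smallest adjusted p = 0.99999). At an unadjusted p of 0.05 there were 2, one of them Osbpl8, beside 2.75% of all genes tested. DESeq2 called the same 2, beside 1.63% of all genes. Among 15 other cholesterol synthesis genes tested, 11 had a higher and 4 a lower mean in the knockout (median log2 fold change 0.15). Msmo1 stood at 171, 154 and 157 CPM in the cKO against 106, 140 and 110 CPM in the control, with no overlap (log2 fold change 0.44 ± 0.23, edgeR adjusted p = 0.99999). The cKO lay wholly above the control in 4.99% of all genes tested. Acat2, which makes acetoacetyl-CoA in the cytosol, stood at 45.6 ± 29.9 against 75.6 ± 31.6 CPM, and Acat1, its mitochondrial counterpart, at 413 ± 95.5 against 399 ± 80.3 CPM (SD, n = 3 each).

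Among 14 tested genes that regulate SREBP, 6 were higher and 8 lower (median log2 fold change -0.0856, and 0.0991 with limma-voom). Srebf2, which encodes SREBP-2, stood at 27.9, 29.3 and 35.3 CPM in the cKO against 61.3, 61.3 and 28.3 CPM in the control, where control 3 lay among the cKO values (-0.71 ± 0.51, edgeR adjusted p = 0.99999). Nfyb, a subunit of NF-Y, stood at 32.9 ± 10.9 against 70.5 ± 42.1 CPM. Pgrmc1, a haem protein that binds cytochromes P450, stood at 493 ± 103 against 481 ± 89.3 CPM. Of 7 further genes under SREBP-2 or linked to it, 3 were tested, 2 higher and 1 lower, with a median of 0.09. Tmem97 stood at 31.6 ± 28.0 against 29.7 ± 31.1 CPM, Lpin1 at 41.9 ± 9.56 against 24.1 ± 12.97 CPM and Scarb1 at 23.2 ± 18.0 against 40.9 ± 12.5 CPM. Stard4, a sterol carrier gene, had 83 counts in cKO 3 and 0 elsewhere.

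The genes around Cyp39a1 in oxysterol and bile acid synthesis were split, with 4 higher and 4 lower among 8 tested (median log2 fold change -0.47). The sign of this median depended on the method, and it was 0.0625 with limma-voom. Cyp7b1 stood at 22.0, 15.5 and 8.89 CPM in the cKO against 27.3, 50.9 and 30.7 CPM in the control. As for Cyp39a1, all 3 cKO values lay below all 3 controls, beside 4.62% of all genes tested, and the difference did not pass the test (-1.23 ± 0.71, edgeR adjusted p = 0.99999). Amacr, a racemase of sterol side chains, stood at 61.2, 40.6 and 58.2 against 38.3, 135 and 145 CPM, with control 1 below the cKO (-0.99 ± 0.51, edgeR adjusted p = 0.99999). Hsd17b4, a peroxisomal enzyme that shortens the side chain, stood at 22.5, 53.5 and 83.8 against 62.7, 106 and 142 CPM, where the groups overlapped (-0.96 ± 0.53, edgeR adjusted p = 0.99999). Scp2, a peroxisomal sterol carrier and thiolase, stood at 514 ± 35.2 against 510 ± 73.9 CPM. Of the 17 genes of this list, 9 were not tested, and Ch25h, Cyp8b1, Cyp11a1, Slc27a5 and Baat had no count in any library.

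**Figure D5:**
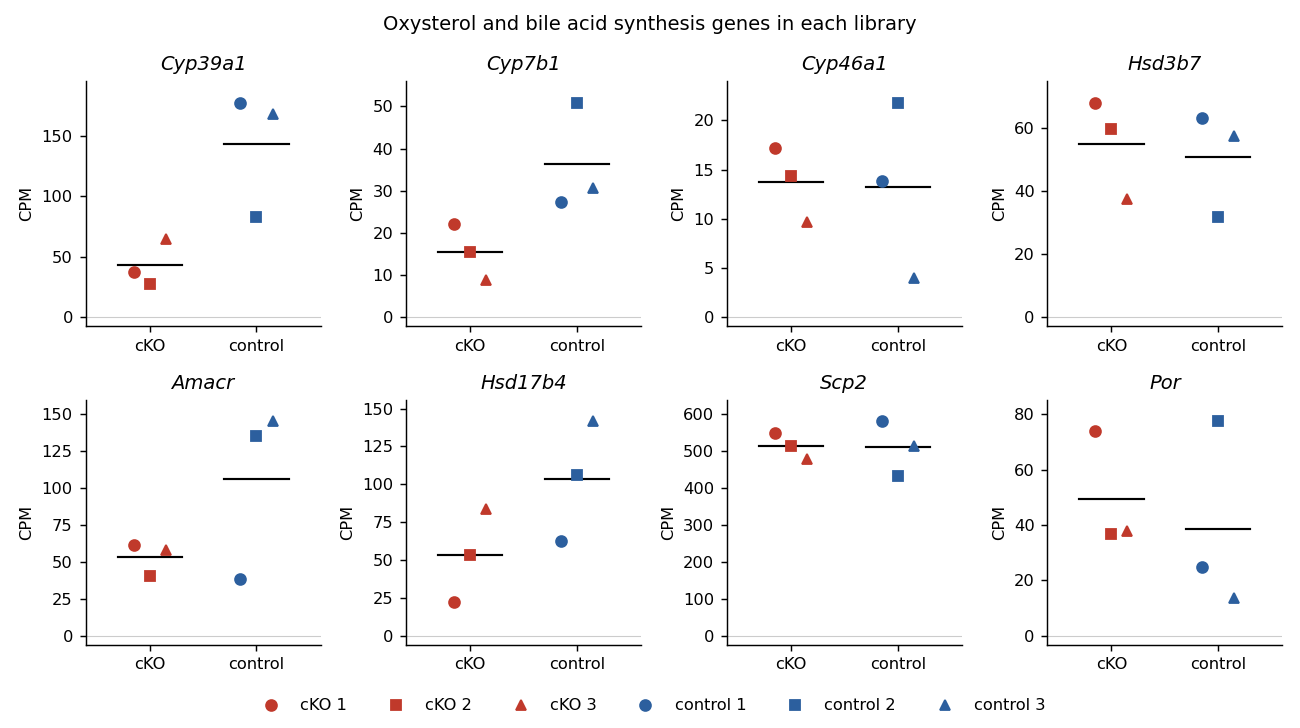
Each panel gives the CPM of 1 gene of oxysterol or bile acid synthesis, with 1 point per library and a black line at the mean of 3 libraries. In Cyp39a1 and Cyp7b1 the cKO points (at most 64.4 and 22.0 CPM) lie below the control points (at least 82.8 and 27.3 CPM), and in the other 6 panels the groups overlap.

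In the lists of sterol efflux, transport and side branches edgeR called no gene, and DESeq2 called Osbpl8, beside 1.63% of all genes. In the list of liver X receptors, which oxysterols activate, and efflux genes, 4 were higher and 4 lower among 8 tested (median log2 fold change -0.0738, and 0.0281 with limma-voom). Apoe stood at 20480 ± 1109 against 19930 ± 92.1 CPM, Abcg1, a sterol exporter, at 124 ± 33.7 against 102 ± 59.4 CPM, Nr1h2, a liver X receptor gene, at 86.5 ± 44.5 against 82.1 ± 22.7 CPM and Rxra, its partner gene, at 11.6 ± 4.77 against 3.14 ± 2.44 CPM. For Rxra the cKO lay wholly above the control, beside 4.99% of all genes tested (edgeR adjusted p = 0.99999). Sterol transport and ester genes were 8 higher and 10 lower among 18 tested (median -0.23, and 0.21 with limma-voom). Osbpl8, an oxysterol-binding family gene, had 16, 117 and 90 counts in the cKO and 0, 2 and 1 in the control (edgeR adjusted p = 0.99999). Osbpl2 of the same family stood at 32.0 ± 9.19 against 46.8 ± 8.33 CPM, Npc2, which carries cholesterol in lysosomes, at 231 ± 35.0 against 194 ± 45.7 CPM and Soat1, which esterifies cholesterol, at 74.8 ± 37.1 against 81.5 ± 59.8 CPM.

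Genes that use mevalonate products for other ends were 6 higher and 4 lower among 10 tested (median 0.11). Dhdds, of dolichol synthesis, stood at 120, 79.6 and 67.4 CPM in the cKO against 53.9, 61.1 and 65.2 CPM in the control (0.57 ± 0.34, edgeR adjusted p = 0.99999). The groups did not overlap, though cKO 3 lay close to control 3. The cKO lay wholly above the control in 4.99% of all genes tested. Ggps1, which extends farnesyl diphosphate, stood at 40.3 ± 13.9 against 65.1 ± 51.3 CPM, and the prenyltransferase subunits Fnta and Fntb at 339 ± 38.6 against 328 ± 94.5 and 7.71 ± 5.94 against 14.7 ± 7.21 CPM. Fatty acid synthesis genes were 3 higher and 8 lower among 11 tested (median -0.25). Fads1 and Fads2, desaturases of polyunsaturated fatty acids, stood at 63.9 ± 26.7 against 94.2 ± 11.6 CPM and 84.2 ± 11.4 against 88.0 ± 62.1 CPM. Scd2 and Scd1, stearoyl-CoA desaturases, stood at 272 ± 98.4 against 321 ± 56.2 and 2.10 ± 2.58 against 9.38 ± 8.19 CPM, and Acly, which supplies cytosolic acetyl-CoA, at 22.9 ± 14.8 against 36.7 ± 28.8 CPM (SD, n = 3 each).

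The genes most like the 8 in pattern were sought among 3476 other genes whose mean reached 50 CPM, by Pearson r of log2 CPM over the 6 libraries, which all genes share. For the mean standardised level of the 7 genes other than Cyp39a1 they were Anapc2 (r = 0.984), Trappc13 (0.972), Get4 (0.97), H2-D1 (0.959) and Cnih1 (0.958). In all 5 of these genes cKO 2 and control 3 were the highest libraries, with cKO 2 first except in H2-D1. For Cyp39a1 the first 4 were Cntf (r = 0.977), Coq5 (0.977), Chmp2a (0.961) and Use1 (0.957). Coq5 stood at 48.6, 34.1 and 60.3 CPM in the cKO against 138, 104 and 145 CPM in the control. The cKO lay wholly below the control in all 4. With 6 points and this many genes, no test was made.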

How the data were processed

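RNA-seq of 6 libraries (3 cKO, 3 control) was used, grouped by sample title. CASAVA 1.8, cutadapt 1.11 and kallisto 0.42.5 were used, per the submitters' processing notes. The build, the annotation and how transcripts were summed were not given in the sources used here. Per the file headers, the deposited files hold an estimated count, not normalized, and a TPM value per gene (scaled to transcript length and library, made by the authors). Counts were rounded. Identifiers were matched to GENCODE M21 (GRCm38) without version number (99.1% of 47643 matched).

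Genes were kept by filterByExpr (11574 of the 19684 with a count), given TMM factors, and fitted in edgeR 4.0.16 (R 4.3.3; robust quasi-likelihood test, no covariate besides genotype). Benjamini-Hochberg adjustment ran over all genes, with a threshold of 0.05. The SE is the log2 fold change divided by the root of F. Alternatives used DESeq2 1.42.0, limma 3.58.1, other filters and scalings, a replicate block and each library left out. Log2 CPM had a prior count of 2. Near copies were sought with blastn 2.17.0.

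The 8 genes, and the lists and rules, were chosen with earlier results of these data known. Named genes were up to 3 per list by smallest p and up to 2 by TPM, plus the 5 most like in pattern. Some genes under this rule are not reported here.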

Additional observations from a re-analysis of the deposited data

How the results depend on the processing

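The fold change of Cyp39a1 ran from -1.76 to -1.68 over 10 alternatives and from -2.14 to -1.49 with 1 library left out. Ccn1 stayed lower (-2.27 to -2.21, and -2.50 to -1.97). The count of genes called was 0 in 9 alternatives and in each fit without 1 library, and 198 with DESeq2, whose cause was not tested. The replicate number was not shown to pair samples: deviations of same-numbered libraries correlated at 0.008, 0.031 and 0.015 across genes, each the best match of its library, and with the replicate block 0 genes were called. Under the block Mvd stood at -7.21, and it stood at -4.78 with limma-voom and -3.50 on log2(TPM + 0.1).

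The median of the oxysterol and bile acid list (-0.47) was 0.0144 with a mean of at least 10 CPM, 0.0625 with limma-voom, -0.093 on log2(TPM + 1) with and without a filter, 0.0111 on log2(TPM + 0.1) and 0.0752 with the replicate block. Without 1 library it ran from -0.52 to 0.11, and the median of Lpin1, Tmem97 and Scarb1 from -0.94 to 1.248. The medians of the SREBP, LXR and sterol transport lists turned sign in 5 of 10 alternatives each, reaching 0.0991, 0.0281 and 0.21. Scp2 turned to -0.11 on all 3 TPM scales, and Soat1 to 0.0487, 0.0485 and 0.0487. Fads2 turned to 0.42 with limma-voom, 0.38 and 0.41 on TPM with a pseudocount of 1 and 0.1 (0.38 unfiltered) and 0.34 with the block. Leaving out 1 library turned Acat1 (-0.0911 to 0.23), Pgrmc1 (-0.15 to 0.20), Tmem97 (-0.94 to 1.248), Scp2 (-0.0908 to 0.12), Abcg1 (-0.0891 to 0.76), Nr1h2 (-0.43 to 0.32), Soat1 (-0.45 to 0.67), Ggps1 (-1.06 to 0.17), Fnta (-0.17 to 0.19), Acly (-1.32 to 0.16), Fads2 (-0.55 to 0.29) and Scd2 (-0.52 to 0.0097). The cause was not tested.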
